A study of Mus musculus with 10 samples.

Results

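Transcripts of 32 genes that hold sister chromatids together, build the meiotic chromosome axis or compact chromosomes were examined in full-grown mouse oocytes that had lost Setdb1. The SETDB1 enzyme methylates lysine 9 of histone H3. The genes were chosen by name, and all 32 were found among the 24453 gene symbols of the table. Sgol2 is listed as Sgol2a and Wapal as Wapl. RNA was measured in germinal vesicle (GV) oocytes, which rest in meiotic prophase before the divisions. Every one of 10 C57Bl/6J mice gave 1 library made from 16 pooled denuded oocytes, so replicates are separate animals. The mutant group is 4 Setdb1 f/-; Zp3-cre mice, which carry a floxed allele, a deleted allele and a Cre transgene driven by the Zp3 promoter, which is active in growing oocytes. The controls are 4 Setdb1 f/+; Zp3-cre mice, which pair the floxed allele with an intact one and carry the same transgene, and 2 Setdb1 f/- mice, which have the mutant alleles but no Cre. All 10 mice carry a floxed allele, and the mutant and f/- mice also share the deleted one. Mouse ages are not stated in the sources used here.

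Cohesin is a ring of an SMC1 and an SMC3 protein closed by a kleisin and bound by a STAG protein, and it holds sister chromatids together. Germ cells use meiotic versions of its parts (SMC1B, REC8, RAD21L and STAG3) beside the somatic ones. In fetal oocytes cohesin and the HORMAD and SYCP proteins form the chromosome axis, and the synaptonemal complex joins the axes of homologous chromosomes. That complex has been taken apart by the GV stage, while cohesin must hold until the meiotic divisions. Condensin and topoisomerase II compact chromosomes when meiosis resumes. Because Zp3 is switched on in growing oocytes, the deletion takes place after homologous chromosomes have synapsed.

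Setdb1 itself averaged 2.81 ± 1.17 RPKM (SD, n = 4) in mutants and 29.7 ± 11.5 in controls (n = 6), with no overlap between libraries (exact two-sided permutation p = 0.0048, the smallest that its 210 permutations allow). RPKM correct read numbers for the length of the transcript and the depth of the library. The spacing of low values put the libraries at about 45700000 to 72500000 reads, and 10 reads on a transcript of 2 kb then equal at most 0.109 RPKM. The 10 oocyte markers summed to 4982 to 5118 RPKM in mutants and 4947 to 6633 in controls, and Nobox was the 1 that passed, being higher in mutants. The 12 granulosa and cumulus markers summed to 78.1 to 111 RPKM in mutants and 75.9 to 104 in controls. The 7 theca and stroma markers summed to 0.948 to 3.91 RPKM in mutants and 0.999 to 3.36 in controls, with Cyp17a1 at 0. The 9 markers of blood, immune and endothelial cells summed to 22.0 to 34.9 in mutants and 29.2 to 46.0 in controls, with Hbb-b1, Hba-a1 and Cdh5 at 0. No tested marker of these other cells passed the test used below against all controls, and their part in the results was not tested. Mutant replicate 2 and f/- replicate 2 stood furthest apart, with a median Spearman correlation with the other libraries of 0.896 and 0.878. Mutant replicate 4 and f/- replicate 1 followed, both at 0.907, and the remaining libraries had 0.930 to 0.937. For the named genes in mutants against all controls, calls that turn on a single library are given with and without it. Other values may also rest on 1 library. In a pool of cells, fewer cells of a type and less RNA per cell cannot be told apart.

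The genes covered a wide range of levels. In controls 5 of the 32 averaged at least 50 RPKM, 11 lay between 10 and 50, 8 between 2 and 10, 7 between 0.5 and 2, and 1 below 0.5. The median of the 31 genes above 0.5 RPKM was 11.4 RPKM, beside 5.94 for all 11338 genes tested. Syce2, which encodes a protein of the synaptonemal complex centre, stood first at 297 ± 35.9 RPKM in mutants and 299.5 ± 40.2 in controls, above 99.5% of tested genes. Smc4, the condensin ATPase, followed at 164 ± 7.29 in mutants and 195 ± 23.0 in controls. Wapl, Esco2 and Smc3 came next, with control means of 63.8 ± 9.46, 61.7 ± 6.58 and 57.8 ± 5.01 RPKM and overlapping control ranges. Stag3, the meiotic STAG subunit, and Hormad1, an axis protein, stood near the bottom at 0.970 ± 0.246 and 0.795 ± 0.309 RPKM in controls. Among the 31 neighbouring pairs in this order, the control ranges overlapped in 27. The breaks fell below Syce2, below Smc4, below Smc3 and above Rec8.

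Rec8, the meiotic kleisin, was listed at 0 in all 4 mutant libraries. Among controls it was listed at 0 in 5 libraries and at 0.00706 RPKM in f/+; Zp3-cre replicate 4, which corresponds to about 1.07 reads. A value of 0 in this table need not mean that the transcript is missing. Ppia and Gapdh, which cells use throughout the body, were listed at only 0 to 0.120 and 0.158 to 0.63 RPKM over the 10 libraries. Other such genes were well above 0, with Actb at 20.4 to 38.3, Tbp at 29.5 to 72.7 and Eef1a1 at 39.8 to 51.5 RPKM. Why Rec8 was listed at 0 was not tested. No other annotated exon overlaps Rec8, on chromosome 14 from 55618002 to 55625395 in GRCm38. Rec8 was below the filter of a mean of 0.5 RPKM and was not tested, and the other 31 genes were.

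**Figure D1:**
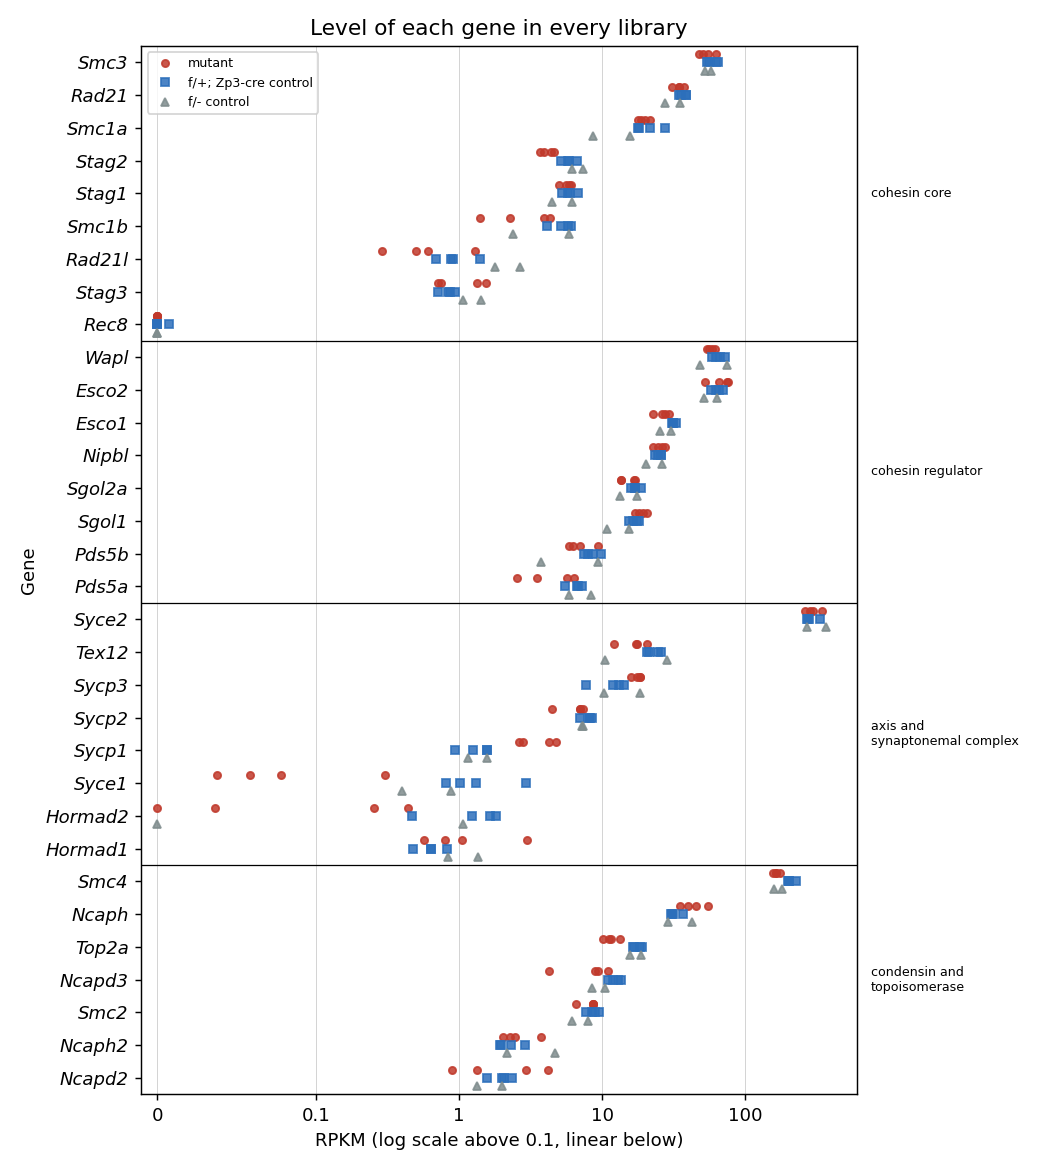
RPKM of the 32 genes (rows, grouped by role and ordered by control mean) in every library, with mutant libraries as red circles, f/+; Zp3-cre controls as blue squares and f/- controls as grey triangles. The x axis is logarithmic above 0.1 RPKM and linear below. Syce2 and Smc4 lie above 150 RPKM in every library, Rec8 at or near 0, and the mutant points of Sycp1 lie above and those of Syce1, Top2a and Stag2 below all control points.

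Few of these genes were called as changed. In mutants against all 6 controls, 1 of the 31 tested genes rose (Sycp1), 2 fell (Syce1 and Top2a) and 28 did not pass, by limma on log2(RPKM + 0.5) at an adjusted p of 0.05 over all 11338 genes. Among all tested genes 3.1% rose and 2.22% fell, 5.33% together, and a count of 3 in 31 is read as near that background. The split between higher and lower calls over all genes moved with the scaling, from 58.3% higher in the values as deposited to 47.2% after median centring. The median log2 change was -0.09 for the 31 genes and 0.03 for all tested genes. All 4 mutant libraries lay below all 6 controls for 3 genes (Syce1, Top2a and Stag2) and above them for Sycp1. Over all tested genes 3.56% had such a gap below the controls and 4.62% above, 8.18% together. For 11 of the 31 genes the 95% interval of the change lay within 1.5-fold in either direction, and for 24 within 2-fold.

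**Figure D2:**
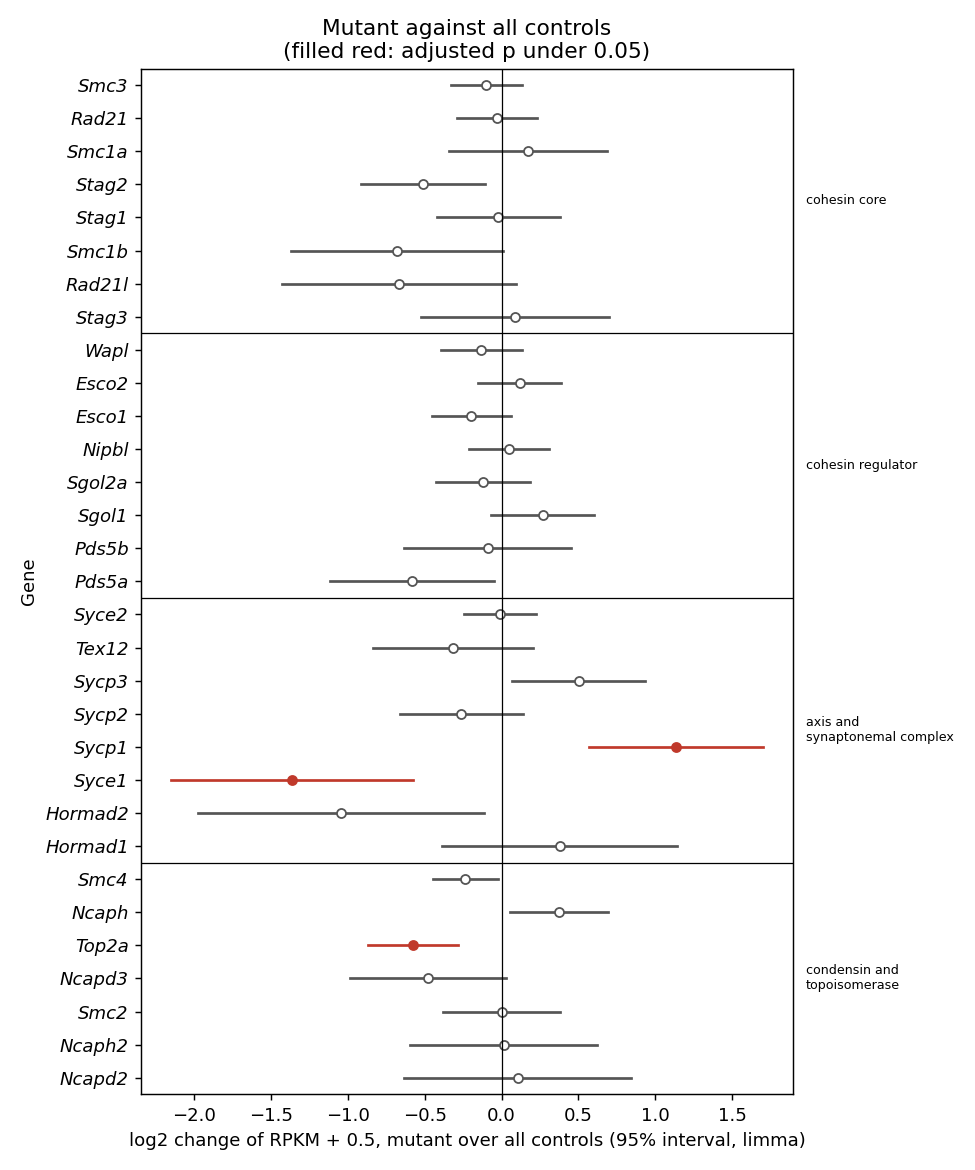
Log2 change of RPKM + 0.5 in mutants over all controls for the 31 tested genes, with 95% intervals from limma, in the order of the levels. Filled red points mark the 3 genes past an adjusted p of 0.05: Sycp1 at 1.13, Top2a at -0.58 and Syce1 at -1.37.

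The synaptonemal complex held both the rise and the largest fall. Sycp1 encodes the transverse filament that zips homologous axes together. Its level was 4.22, 2.81, 4.72 and 2.63 RPKM in mutant replicates 1 to 4. In f/+; Zp3-cre replicates 1 to 4 it was 1.24, 1.57, 1.57 and 0.937 RPKM, and in the f/- replicates 1.15 and 1.55. Every mutant library exceeded every control, and the lowest mutant stood well above the highest control. The means were 3.60 ± 1.03 RPKM in mutants (n = 4) and 1.34 ± 0.267 in controls (n = 6), a 2.69-fold difference in RPKM, with a log2 change of 1.13 ± 0.26 (SE, limma adjusted p = 0.023). The call was lost without mutant replicate 1 or 3 (adjusted p = 0.070 and 0.076) and without f/+; Zp3-cre replicate 1 or 4 (0.061 and 0.064).

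Syce1 encodes a protein of the central element, in which the transverse filaments meet. Its level was 0.0781, 0.304, 0.0376 and 0.0583 RPKM in mutant replicates 1 to 4. In f/+; Zp3-cre it was 0.812, 1.01, 2.93 and 1.32 RPKM, and in f/- 0.878 and 0.395. These mutant values rest on about 2.99 to 25.2 reads and the control values on about 41.9 to 240 reads. The groups did not overlap, although mutant replicate 2 and f/- replicate 2 lay close to each other. All 4 mutant libraries lay below the filter of 0.5 RPKM, so Syce1 entered the test only through its controls. Means were 0.120 ± 0.124 RPKM in mutants and 1.22 ± 0.887 in controls (log2 change -1.37 ± 0.37, SE, limma adjusted p = 0.046). This call was the least stable of the 3. It was lost when any 1 of the 4 mutant or 4 f/+; Zp3-cre libraries or f/- replicate 1 was left out (adjusted p = 0.054 to 0.109), but not without f/- replicate 2 (0.018). It was also lost with a pseudocount of 2 (0.091), without the filter (0.080), after quantile normalization (0.058) and with the transcript rows of each symbol summed (0.054). Its log2 change was -0.57 with a pseudocount of 2 and -2.51 with one of 0.1.

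The sequences before the start sites of the 3 genes that passed are shown because they are the DNA next to which these changes were read. Each runs 5′ to 3′ over the 250 bases upstream of a RefSeq start, on the gene's strand in GRCm38.p6, and all 3 genes lie on the minus strand. The lowest coordinate of the Top2a window, 99024190, lies within the gene's listed span of 98992947 to 99024199. Capitals mark TCCCGC (the core bound by E2F6), CACGTG (an E-box) and CCAAT, searched on both strands. E2F6 and E-box factors are known to keep germline genes silent in somatic cells, and the CCAAT box is bound by NF-Y.
Sycp1, chr3:102936101-102936350: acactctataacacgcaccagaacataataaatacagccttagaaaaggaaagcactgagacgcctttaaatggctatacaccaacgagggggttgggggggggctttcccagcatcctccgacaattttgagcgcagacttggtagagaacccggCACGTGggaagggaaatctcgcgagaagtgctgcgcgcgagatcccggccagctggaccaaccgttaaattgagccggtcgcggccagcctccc
Syce1, chr7:140787855-140788104: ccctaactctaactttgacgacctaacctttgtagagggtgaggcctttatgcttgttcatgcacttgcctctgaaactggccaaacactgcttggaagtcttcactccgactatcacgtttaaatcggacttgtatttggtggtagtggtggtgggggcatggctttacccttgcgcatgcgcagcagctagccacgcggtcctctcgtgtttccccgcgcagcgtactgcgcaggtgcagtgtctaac
Top2a, chr11:99024190-99024439: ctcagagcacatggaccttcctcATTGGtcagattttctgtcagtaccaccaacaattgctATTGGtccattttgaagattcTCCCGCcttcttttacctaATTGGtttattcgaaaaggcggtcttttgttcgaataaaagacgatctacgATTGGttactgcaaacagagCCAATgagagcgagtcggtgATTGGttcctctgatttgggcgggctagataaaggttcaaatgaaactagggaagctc
The Sycp1 window holds 1 E-box, which begins 94 bases before the start. None of these letters occurs in the Syce1 window. Top2a has 6 matches to CCAAT, 5 of them as ATTGG, and 1 to TCCCGC, with no overlap between matches. Of the 32851 promoter windows of the mouse genome in the RefSeq table, 16.9% hold TCCCGC, 6.02% CACGTG and 33.8% CCAAT. Among the 26 of the 32 genes found in that table, 12, 7 and 11 hold them in at least 1 window. Those genes have 30 windows, and these counts are of genes where the percentages are of windows, so they are not compared. The CG dinucleotide occurs 17 times in the Sycp1 window, 13 times in Syce1 and 9 times in Top2a. The median was 19 over the 30 windows of these genes and 6 over all windows, and TCCCGC and CACGTG themselves hold a CG. A match is a description of the letters only.

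The other axis and synaptonemal complex genes did not pass. Hormad2, whose product marks unsynapsed axes, had 0.0365, 0.437, 0 and 0.254 RPKM in mutants. It had 1.82, 1.22, 1.63 and 0.464 RPKM in f/+; Zp3-cre, and 0 and 1.06 in f/-. All 4 mutants lay below the f/+; Zp3-cre libraries, but f/- replicate 1 was also at 0. The log2 change against all controls was -1.05 ± 0.43 (limma adjusted p = 0.19). Without f/- replicate 1 it was -1.33 with an adjusted p of 0.045, and in a fit without either f/- library -1.36 (0.045). With array weights it was -1.46 (0.036), and these 3 were the only passes in 19 alternatives. All 4 mutant libraries lay below the filter of 0.5 RPKM, so Hormad2 entered the test only through its controls. Sycp3, a filament protein of the lateral element, had 15.9 to 18.4 RPKM in mutants and 7.73 to 18.2 in controls (median 12.6 RPKM, log2 change 0.50, adjusted p = 0.18). Only f/- replicate 2 among the controls reached the mutant range. Sycp2, its partner in the lateral element, had 4.47 to 7.35 RPKM in mutants and 7.003 to 8.503 in controls (adjusted p = 0.47). Tex12, the partner of Syce2 in the central element, had 12.2 to 20.7 RPKM in mutants and 10.5 to 28.6 in controls, where both extremes were the f/- libraries. Hormad1 had 0.567 to 2.97 RPKM in mutants and 0.475 to 1.36 in controls (adjusted p = 0.60). The highest was mutant replicate 2, and the other mutants had 0.567 to 1.04 RPKM, within the control range. Leaving out 1 library gave log2 changes of 0.020 to 0.59. Hormad1 lies on chromosome 3, 202.5 kb from Setdb1, and any part of this position was not tested. Syce2, the most abundant of all 32, had a change of -0.01 with a 95% interval of -0.25 to 0.22.

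Of the 7 condensin and topoisomerase genes among the 32, only Top2a passed against all controls, where 5.33% of all tested genes did. Ncapg, a condensin I gene from a separate list, rose and is given below. Top2a encodes the enzyme that disentangles DNA strands before chromosomes separate. It had 11.6, 10.2, 11.2 and 13.2 RPKM in mutants. In f/+; Zp3-cre it had 16.7, 16.4, 18.2 and 19.1 RPKM, and in f/- 15.7 and 18.6. The groups did not overlap, and the ranges of the control genotypes overlapped. Means were 11.6 ± 1.27 RPKM in mutants and 17.5 ± 1.35 in controls, so the mutant mean was 66.2% of the control mean. The log2 change was -0.58 ± 0.14 (SE, limma adjusted p = 0.025). The call was lost without mutant replicate 1, 2 or 3 and without any one of the f/+; Zp3-cre replicates (adjusted p = 0.052 to 0.073), while the log2 change stayed between -0.64 and -0.52 whichever library was left out.

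Smc4 had 163, 157, 164 and 174 RPKM in mutants. In f/+; Zp3-cre it had 200.0, 202, 226 and 202 RPKM, and in f/- 180 and 159. Mutants lay below all 4 Cre controls and overlapped the f/- values. Its log2 change against all controls was -0.24 ± 0.10 (limma adjusted p = 0.20). Ncaph, the kleisin of condensin I, had 34.7 to 54.5 RPKM in mutants and 28.7 to 42.5 in controls (log2 change 0.37, adjusted p = 0.18). Smc2, the SMC partner of Smc4, averaged 8.11 ± 1.01 RPKM in mutants and 8.12 ± 1.16 in controls. Ncapd3, a condensin II subunit, had 4.26 to 10.96 RPKM in mutants and 8.52 to 13.6 in controls (log2 change -0.48, adjusted p = 0.29). Ncaph2, the condensin II kleisin, had 2.02 to 3.71 RPKM in mutants and 1.93 to 4.65 in controls. Ncapd2, a condensin I subunit, was the most scattered of the group in mutants, at 0.886 to 4.21 RPKM, against 1.33 to 2.35 in controls.

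**Figure D3:**
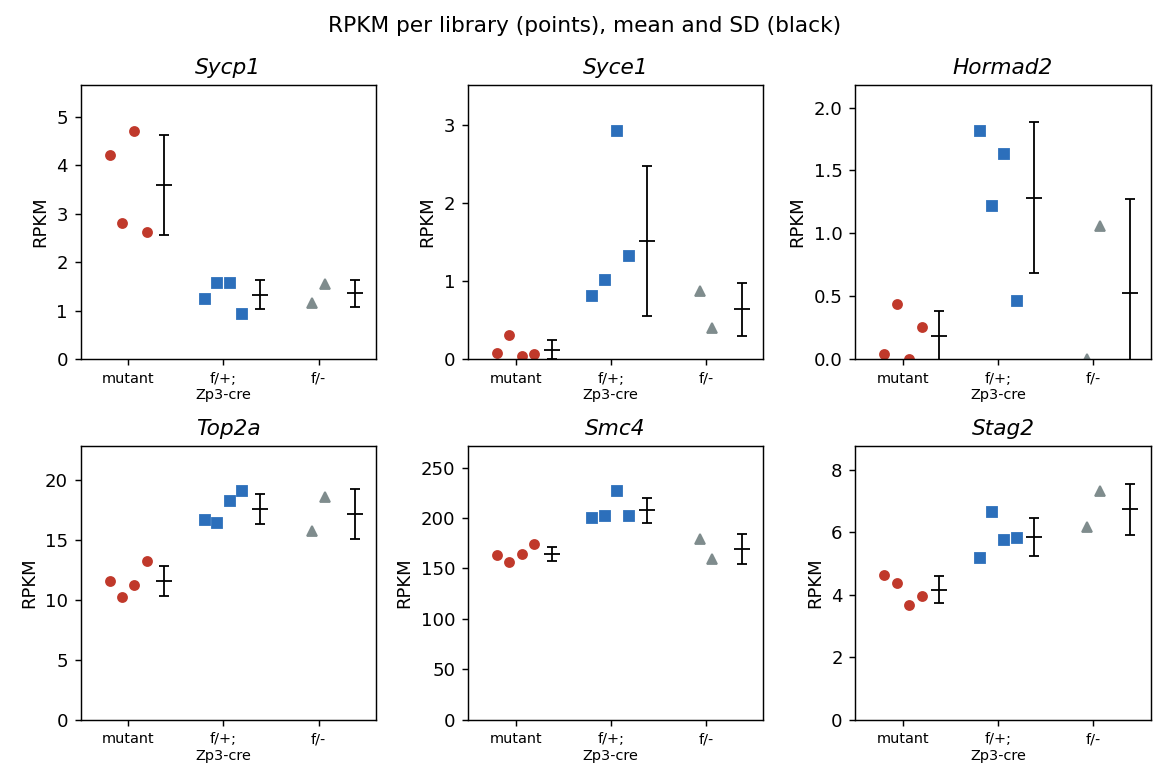
RPKM of 6 genes in every library (points), with the mean and SD of each group in black (bars cut at 0), for mutants, f/+; Zp3-cre controls and f/- controls from left to right. Sycp1, Syce1, Top2a and Stag2 show no overlap between mutants and controls, whereas Hormad2 and Smc4 each have an f/- library within the mutant range.

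None of the 8 tested cohesin core genes passed against all controls, which is near the 5.33% called among all tested genes. Stag2, 1 of the somatic STAG subunits, came nearest. It had 4.62, 4.39, 3.68 and 3.95 RPKM in mutants. In f/+; Zp3-cre it had 5.19, 6.65, 5.76 and 5.82 RPKM, and in f/- 6.15 and 7.31. No mutant reached any control, yet the log2 change of -0.51 ± 0.19 had a limma adjusted p of 0.14. Its paralog Stag1 had 4.998 to 6.01 RPKM in mutants and 4.46 to 6.78 in controls. Stag3 had 0.715 to 1.55 RPKM in mutants and 0.707 to 1.41 in controls.

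The SMC subunits of cohesin differed in level and in scatter. Smc3, shared by all cohesin rings, had 47.9 to 62.2 RPKM in mutants and 52.2 to 64.8 in controls (95% interval of the log2 change -0.33 to 0.13). Smc1a, the somatic SMC1, had 17.8 to 21.5 RPKM in mutants and 8.65 to 27.3 in controls. Smc1b, the meiotic SMC1, had 3.91, 4.29, 2.27 and 1.39 RPKM in mutants. It had 4.10, 5.73, 6.10 and 5.19 in f/+; Zp3-cre, and 5.81 and 2.39 in f/-. Mutants 3 and 4 were the lowest libraries, and f/- replicate 2 lay next to them (log2 change -0.68, 95% interval -1.37 to 0.01, adjusted p = 0.26).

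The kleisins went separate ways in level. Rad21, the somatic kleisin, had 30.7 to 37.1 RPKM in mutants and 27.5 to 38.8 in controls, a log2 change of -0.03 with a 95% interval of -0.29 to 0.23. Rad21l, the meiosis-specific kleisin, had 0.502, 0.289, 0.607 and 1.30 RPKM in mutants. It had 0.686, 0.878, 1.40 and 0.909 in f/+; Zp3-cre, and 2.66 and 1.79 in f/-. The f/- libraries were the highest, and the mutants overlapped f/+; Zp3-cre (log2 change against all controls -0.67, adjusted p = 0.32).

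None of the 8 cohesin regulators passed against all controls, again near the 5.33% called among all tested genes. Nipbl, which loads cohesin onto DNA, had 22.6 to 27.7 RPKM in mutants and 20.4 to 26.2 in controls. Wapl, which releases cohesin, had 54.0 to 61.7 RPKM in mutants and 48.5 to 74.2 in controls. Pds5a and Pds5b encode proteins that bind the ring and regulate its release. Pds5a had 2.55 to 6.37 RPKM in mutants and 5.47 to 8.38 in controls, with mutants 2 and 4 below every control (log2 change -0.58, adjusted p = 0.21). Pds5b had 5.86 to 9.36 RPKM in mutants and 3.72 to 9.78 in controls. Esco1 and Esco2 encode acetyltransferases that lock the ring. Esco1 had 22.6 to 29.1 RPKM in mutants and 25.3 to 32.6 in controls (adjusted p = 0.40), and Esco2 52.6 to 76.4 in mutants and 51.4 to 70.4 in controls (adjusted p = 0.65). The shugoshins Sgol1 and Sgol2a protect centromeric cohesin. Sgol1 had 16.9 to 20.5 RPKM in mutants and 10.8 to 18.2 in controls (log2 change 0.27, adjusted p = 0.38), and Sgol2a 13.6 to 17.0 and 13.4 to 18.6 (adjusted p = 0.68). In 5 of these 8 genes the 95% interval lay within 1.5-fold in either direction.

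Setting the mutants against each control genotype asks whether a difference is seen against both. Mutants differ from both in having lost Setdb1, so neither comparison isolates Cre or the deleted allele. The f/+; Zp3-cre mice keep 1 intact allele, and Cre can delete their floxed one. Both comparisons use the same mutant libraries. Against f/+; Zp3-cre, 1 gene rose (Sycp1) and 3 fell (Syce1, Top2a and Smc4) of the 31, where 2.76% of all genes rose and 2.13% fell (4.89% together). Against f/-, none of the 31 passed by limma, where 3.25% of all genes rose and 1.59% fell (4.84% together). At an unadjusted p below 0.05, 3 were higher and 3 lower, beside 21.5% of all genes. That background is not stable: the counts over all genes were 369 higher and 180 lower, 998 and 489 without f/- replicate 1, 258 and 183 without f/- replicate 2, and 46 and 6 with array weights. The log2 change of Sycp1 was 1.14 ± 0.28 against f/+; Zp3-cre (adjusted p = 0.039) and 1.12 ± 0.35 against f/- (0.088). That of Top2a was -0.59 ± 0.14 (0.036) and -0.55 ± 0.18 (0.095). Syce1 had -1.62 ± 0.37 (0.026) against f/+; Zp3-cre and -0.86 ± 0.45 (0.29) against f/-. Smc4 had -0.33 ± 0.08 (0.037) and -0.04 ± 0.10 (0.86).

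The difference between the control genotypes was tested directly. None of the 31 genes passed in f/- against f/+; Zp3-cre by limma, where 0.0441% of all genes rose and 0.0265% fell (0.0706% together). At an unadjusted p below 0.05, 1 was higher and 2 lower, beside 14% of all genes. Smc4 averaged 169 ± 14.6 RPKM in f/- (n = 2) and 208 ± 12.6 in f/+; Zp3-cre (n = 4), a log2 change of -0.29 with an adjusted p of 0.23. Smc1a averaged 12.1 ± 4.93 RPKM in f/- and 21.2 ± 4.40 in f/+; Zp3-cre (log2 change -0.82, adjusted p = 0.17). Rad21l averaged 2.23 ± 0.616 in f/- and 0.968 ± 0.303 in f/+; Zp3-cre (log2 change 0.90, adjusted p = 0.35). Leaving out f/- replicate 1 leaves 1 library, f/- replicate 2, which is then assumed to vary like the other groups and which stood apart. In that fit 298 genes were called higher and 545 lower in f/- against f/+; Zp3-cre over all genes, beside 5 and 3 with both f/- libraries. Smc1a was among the lower ones (adjusted p = 0.016), and Smc1a and Sgol1 were called higher in mutants against that library (0.014 and 0.027). Without mutant replicate 4, Rad21l fell in mutants against f/- (0.046). The Smc4 call against f/+; Zp3-cre was lost without mutant replicate 1, 2 or 3 or any f/+; Zp3-cre replicate (0.077 to 0.107) and without the filter (0.054). Against f/+; Zp3-cre, Sycp1 was lost without mutant replicate 1 or 3 or any f/+; Zp3-cre replicate (0.076 to 0.149) and without the filter (0.065). Top2a was lost there without the same libraries and mutant replicate 2 (0.062 to 0.141), and with summed rows (0.053). Syce1 was lost there without mutant replicate 1, 3 or 4 or f/+; Zp3-cre replicate 2, 3 or 4 (0.053 to 0.089), and after quantile normalization (0.054).

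**Figure D4:**
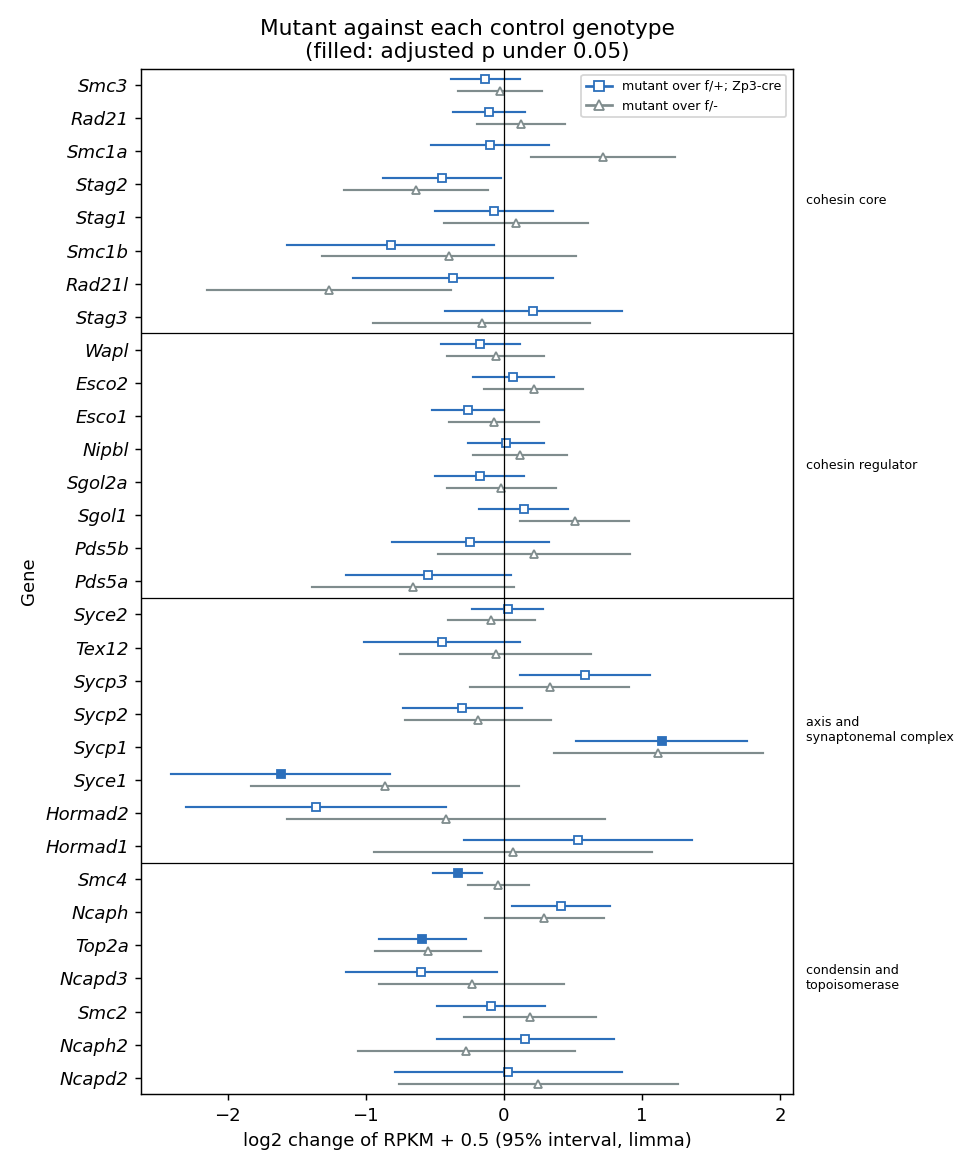
Log2 change of RPKM + 0.5 in mutants over f/+; Zp3-cre (blue squares) and over f/- (grey triangles) for the 31 tested genes, with 95% intervals from limma. Filled symbols mark an adjusted p under 0.05: Sycp1, Syce1, Smc4 and Top2a against f/+; Zp3-cre, and none against f/-.

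RPKM are scaled to length, so partner transcripts were set against each other within each library. The cDNA was amplified and the counting tool is not stated, so these ratios describe listed RPKM and not numbers of transcripts. Smc4 and Smc2 form the SMC pair of both condensins, yet Smc4 RPKM were 19.0 to 23.8 times those of Smc2 in mutants and 21.4 to 26.4 times in controls. Syce2 exceeded its partner Tex12 by 14.4 to 21.3 times in mutants and 9.44 to 34.9 times in controls. Smc3 exceeded Smc1a by 2.36 to 3.13 times in mutants and 2.30 to 6.65 times in controls, the highest being f/- replicate 2. The excess of 1 partner was thus present in every library of both groups.

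Paralogs were also unequal. Smc1b stood at 0.0646 to 0.228 times the RPKM of Smc1a in mutants and 0.223 to 0.372 times in controls. The condensin I kleisin Ncaph exceeded the condensin II kleisin Ncaph2 by 10.8 to 27.0 times in mutants and 6.18 to 19.8 times in controls. For Ncapd3 and Ncapd2 the order was the opposite. Ncapd3, of condensin II, was at 1.44 to 10.1 times Ncapd2, of condensin I, in mutants and 4.28 to 7.83 times in controls. Ncapg, of condensin I, averaged 94.04 RPKM in mutants and 65.25 in controls, above Ncapg2, of condensin II, at 15.14 and 19.67. Stag2 was at 0.612 to 0.879 times Stag1 in mutants, below it in each library, and at 0.766 to 1.38 times in controls. Esco2 exceeded Esco1 by 2.00 to 2.90 times in mutants and 1.87 to 2.24 times in controls. The ratio of Syce2 to Syce1 was 1134 to 6914 in mutants and 114 to 682 in controls. This restates the gap in Syce1, which rests on about 2.99 to 25.2 reads in mutants, beside Syce2 levels that overlapped between groups.

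**Figure D5:**
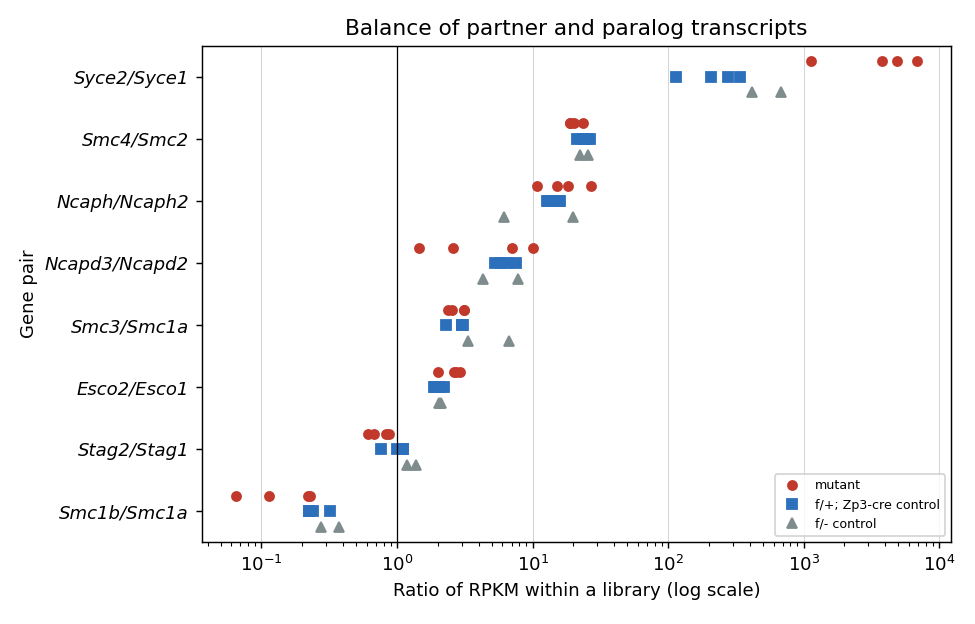
Ratio of the RPKM of gene pairs within each library (log axis), with mutants as red circles, f/+; Zp3-cre controls as blue squares and f/- controls as grey triangles. Smc4 stands about 19.0 to 26.4 times above Smc2 in all 10 libraries, and the ratio of Syce2 to Syce1 separates the mutants, at 1134 and above, from the controls, at 682 and below.

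Other genes of the same processes were examined from a separate list of 42 found in the table, of which 37 passed the filter. Of these 1 rose, 2 fell and 34 did not pass by limma over all genes, with a median log2 change of -0.04, and 3 in 37 is read as near the 5.33% called among all genes. Tex15, which male mice need for meiotic recombination, fell to 6.37, 7.39, 6.22 and 7.77 RPKM in mutants. In controls it had 15.3, 18.1, 19.1 and 16.1 RPKM in f/+; Zp3-cre and 15.0 and 18.6 in f/-. The gap between the groups was wide, with a log2 change of -1.24 ± 0.15 (limma adjusted p = 0.00018). Ncapg, a condensin I subunit, rose to 86.4, 104, 102 and 83.0 RPKM in mutants, against 72.9, 69.6, 67.3 and 75.3 in f/+; Zp3-cre and 52.1 and 54.3 in f/-. Every mutant library exceeded every control (log2 change 0.53 ± 0.13, adjusted p = 0.028). Its call was lost without mutant replicate 2 or 3 (0.084 and 0.086), without the filter (0.071), and after median centring (0.063) or quantile normalization (0.069).

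Ccdc36, also called Iho1, encodes a partner of HORMAD1 in forming meiotic DNA breaks. It fell to 0, 0.317, 0.00639 and 0.173 RPKM in mutants, against 0.783, 0.618, 0.488 and 1.06 in f/+; Zp3-cre and 1.77 and 0.922 in f/-. Every mutant lay below the filter of 0.5 RPKM, so Ccdc36 entered the test only through its controls. The groups did not overlap, at levels where few reads count (log2 change -1.18 ± 0.32, limma adjusted p = 0.048). That call was lost without mutant replicate 1, 3 or 4, any f/+; Zp3-cre replicate or f/- replicate 2 (0.051 to 0.119). It was also lost with a pseudocount of 2 (0.083), summed rows (0.057) and quantile normalization (0.15). Next by p, without passing, were Msh4, Nsmce2, Meikin, Gsg2 and Mau2. Msh4, which stabilises crossover intermediates, averaged 3.60 ± 1.53 RPKM in mutants and 6.07 ± 0.989 in controls (adjusted p = 0.11, and 0.033 without mutant replicate 2). Nsmce2, a SUMO ligase of the SMC5/6 complex, averaged 117 ± 6.14 in mutants and 137 ± 9.56 in controls (0.15). Meikin, which works with shugoshin at meiotic centromeres, averaged 12.9 ± 5.85 RPKM in mutants and 7.98 ± 0.693 in controls (0.17). Gsg2, which encodes the kinase haspin, averaged 48.8 ± 8.38 in mutants and 37.7 ± 6.16 in controls (0.19). Mau2, the partner of Nipbl in loading cohesin, averaged 11.4 ± 2.66 in mutants and 8.06 ± 1.64 in controls (0.20). The Meikin mean leaned on mutant replicate 2, at 21.4 RPKM, where the other mutants had 8.22 to 11.55. Leaving out 1 library gave log2 changes of 0.31 to 0.75 for Meikin.

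Several of the genes have more than 1 transcript row or overlap a neighbour. Stag2, Sgol2a, Wapl, Nipbl, Hormad1, Syce2, Ncaph2 and Smc2 have 2 to 4 rows, and within each symbol the highest row mean was at most 1.28 times the lowest. The library kit did not mark strand, so reads of a gene and of a transcript on the opposite strand cannot be told apart. Exons annotated on the opposite strand overlap Stag2 (Gm37564), Sgol2a (Kctd18), Pds5a (Gm42727 and Gm42729), Sycp3 (Chpt1) and Ncaph2 (Sco2 and Tymp). On its own strand Top2a, on chromosome 11 from 98992947 to 99024199, overlaps Gm23451. Ncapd2 likewise overlaps Gm28967 and Scarna10. Sycp1, on chromosome 3 from 102818499 to 102936100, and Syce1, on chromosome 7 from 140777229 to 140787854, overlap no other annotated exon. Sgol2a has a related gene, Sgol2b, so reads shared by both may have been assigned to either or dropped.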

How the data were processed

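The deposited table gives RPKM, made by the authors, for 34768 RefSeq transcripts in 10 libraries. Per the submitters' processing notes, bcl2fastq 1.8.3, STAR and mm10 were used. The counting tool, and how it handled multi-mapped reads, is not stated in the sources used here. Per the labels' protocols, cDNA from 1.2 ng of RNA was amplified before library preparation. For each symbol the row with the highest mean stood for the gene.

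RPKM are not counts, so limma 3.58.1 (R 4.3.3, empirical Bayes trend) was run on log2(RPKM + 0.5) for the 11338 genes averaging 0.5 RPKM or more over the 10 libraries. P-values were adjusted by Benjamini-Hochberg over all of them, with a threshold of 0.05. This scale understates changes of low genes. Mutant against all controls used 2 levels, and the other comparisons a model with 3 groups. All adjusted p-values are from limma. On simulated data for mutant against all controls (11338 genes) the test found 39% of the genes given a log2 change of 1 and 82% of those given 2, with 4 wrong calls of 125. Depth was estimated from the spacing of low values with GENCODE M21 lengths, available for 97.7% of rows. With it, 69.4% to 73.0% of low values came within 0.1 of a whole read, so read numbers are approximate and were not tested.

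All 32 genes are named, as are the 8 listed pathway genes with the smallest p. Genes, lists and tests were chosen with earlier results of these data known. Promoter sequences are RefSeq, GRCm38.p6.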

Additional observations from a re-analysis of the deposited data

Results flagged for a closer look

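Of 95 groups of 4 or 6 libraries examined, 10 held a library far from the others of its group. About 1 in 20 groups would by chance, and a gene's f/+; Zp3-cre and all-control groups share libraries. Mutant replicate 2 stood apart in 3 genes. It had 4.47 RPKM of Sycp2 (6.95 to 7.35 in the other mutants), 6.59 of Smc2 (8.58 to 8.66) and 0.304 of Syce1 (0.0376 to 0.0781). The f/+; Zp3-cre replicate 3 was high for 333 RPKM of Syce2 (272 to 279 in the other 3 libraries of that group), 226 of Smc4 (200.0 to 202) and, among all controls, 2.93 of Syce1 (0.395 to 1.32). The f/- replicate 1 was low for Esco1 at 25.3 RPKM (30.2 to 32.6 in the other controls) and high for Ncaph2 at 4.64 (1.93 to 2.88). Rec8 at 0.00706 RPKM in f/+; Zp3-cre replicate 4, against 0 elsewhere, met the criterion both within its group and among all controls.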

How the results depend on the processing

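Of 615 values of the 31 genes under up to 20 alternatives, 544 kept direction and side of the threshold, 27 lost the call, 6 gained it and 38 turned sign, the last in 9 genes with changes near 0. In mutants against all controls, array weights gave 2 higher and 4 lower genes (807 and 581 of all genes). Using f/+; Zp3-cre as the only controls gave 4 lower (385 of all genes). The number of lower genes was 1 with a pseudocount of 2 (217 of all genes), no filter (150), quantile normalization (337) or summed rows (246). It was also 1 with a filter of 2 RPKM (195 of all genes), where Syce1 was not tested. The replicate block gave 0 higher and 0 lower, with 140 of all genes lower, and ended the calls of Ncapg and Ccdc36 (adjusted p = 0.078 and 0.12). Under the block the limma adjusted p was 0.055 for Sycp1, 0.059 for Top2a and 0.078 for Syce1. Deviations of same-numbered libraries correlated at -0.046 to 0.031 over 8 pairs, and those of the other 24 pairs at -0.081 to 0.081. The deviations of the 2 f/- libraries mirror each other, so these pairs are not independent. These values cannot show whether equal numbers mean shared handling. Leaving out 1 library gave 0 to 1 higher and 0 to 2 lower, with 236 to 445 higher and 119 to 356 lower of all genes.

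In mutants against f/+; Zp3-cre, higher genes numbered 0 without the filter, 2 with array weights and 0 with the block (248, 807 and 244 of all genes, beside 313). The block also gave 0 lower (139 of all genes, beside 241). Leaving out 1 mutant or f/+; Zp3-cre library gave 0 to 1 higher and 0 to 2 lower there (160 to 303 and 66 to 189 of all genes). Against f/- it gave 0 higher and 0 to 1 lower (197 to 406 and 78 to 198 of all genes). Between the controls it gave 0 higher and 0 lower (0 to 22 and 0 to 23 of all genes). Fits without an f/- library keep 1 library in that group and are left out of these ranges. The sign turned for Smc1a (-0.10) and Syce2 (0.028) with f/+; Zp3-cre only. It turned for Nipbl (-0.011), Ncaph2 (-0.047) and Smc2 (-0.058) with median centring, and with quantile normalization (-0.054, -0.039 and -0.058). With array weights it turned for Nipbl (-0.040), Syce2 (0.0095), Ncapd2 (-0.29) and Smc2 (-0.012), and with the block for Syce2 (0.0031) and Smc2 (-0.017). Smc2 was at -0.091 with f/+; Zp3-cre only. Leaving out 1 library gave log2 changes from -0.019 to 0.30 for Smc1a, -0.095 to 0.020 for Rad21, -0.084 to 0.030 for Stag1 and -0.048 to 0.20 for Stag3. The range was -0.087 to 0.049 for Syce2, -0.19 to 0.40 for Ncapd2, -0.14 to 0.17 for Ncaph2 and -0.070 to 0.093 for Smc2. The cause of these shifts was not tested.

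Depth limits low values such as those of Rec8 (at most about 1.07 reads), and in mutants Syce1 (2.99 to 25.2) and Hormad2 (0 to 33.4), and copies made by amplification do not count as separate molecules. The median SD on the log2 scale was 0.25 for these genes in mutants, 0.14 in f/+; Zp3-cre and 0.31 in f/-.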
